A study of Bos taurus with 8 samples.

Results

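The genes of cholesterol synthesis and of its regulation by sterols were examined in granulosa cells of atretic and growing dominant follicles of cattle. Members were listed by name as the enzymes of the route to cholesterol, the proteins that sense sterols and control the route, and proteins that move or store cholesterol. The list held 32 symbols for 31 genes, because SC4MOL and MSMO1 name the same gene. Where the platform annotation gave a gene several probes, the brightest on average stood for it. All 31 had a probe and a mean log2 intensity of at least 7, as did 13625 of the 15229 named genes on the array. By role there were 17 enzymes in sequence from HMGCS1 to DHCR7, 5 regulators and 5 genes of transport and storage. The 4 further enzymes (ACAT1, ACAT2, GGPS1 and LBR) were kept out of the 17. Of these, ACAT2 acts at the start of the route and LBR can carry out a step within it.

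Cells came from 4 atretic and 4 growing follicles of more than 9 mm in ovaries of Holstein cattle, collected at a slaughterhouse from animals of unknown reproductive status. The layer of mural granulosa cells was scraped from the wall of each follicle, and the phase was assigned from the DNA content of its cells by flow cytometry, with atretic follicles those ranked lowest by the share of intact and dividing cells less the share of cells of reduced DNA content. Follicles ranked in between were not analysed here. RNA was amplified linearly and labelled in Cy5 or Cy3, and 4 pairs of follicles, each an atretic with a growing one, were hybridised to EmbryoGENE bovine arrays once in either dye orientation, giving 8 arrays. It is not stated that each follicle was from a separate cow, and p-values cover only the variation among these follicles. A follicle is named below by its phase and the number of its pair. A level is the log2 intensity of that follicle, averaged over its 2 arrays. A ratio is the log2 of atretic over growing, so a negative ratio means a lower signal in the atretic follicle.

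Cholesterol is built from acetyl-CoA through mevalonate, farnesyl pyrophosphate, squalene and lanosterol. When membranes are poor in sterol, SCAP carries the transcription factor SREBP-2 from the endoplasmic reticulum to the Golgi, where proteases release its active part, which raises transcription of the enzymes. When sterol is plentiful, INSIG proteins hold SCAP and SREBP back. In the ovary, cholesterol is also the starting material of all steroid hormones, which granulosa cells make in large amounts before ovulation and luteinisation.

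The median spot stood 4.10 to 5.45 times above its local background in Cy5 and 8.97 to 13.6 times in Cy3. Arrays titled 203 all had the atretic follicle in Cy5. Those titled 204 (pairs 1 to 3) and 248 (pair 4) had the growing follicle in Cy5, so title number and dye orientation cannot be told apart. Within a pair, 27 to 29 of the 31 genes kept their sign when the dyes were exchanged, against 66.3 to 69.2% of all named genes. Granulosa markers were present, with INHA at 14.29 to 15.98 in atretic and 13.54 to 15.99 in growing follicles, at the upper limit of the scanner on 3 of the 8 arrays for atretic and on 4 of the 8 for growing follicles. CYP17A1, a defining enzyme of theca cells, exceeded the negative controls on 4 of the 8 arrays for atretic and on 7 of the 8 for growing follicles. Its level was 9.49 in atretic 1 and 7.19 to 7.42 in atretic 2 to 4, against 7.60 to 9.12 in growing follicles. In its qRT-PCR the paper removed 1 atretic sample, A2, whose high CYP17A1 it took as a sign of theca cells. It is not stated whether A2 is among the follicles here. The 6 measured theca markers had a summed level (log2 of their added intensities) of 11.19 to 12.21 in atretic and 10.94 to 12.38 in growing follicles. In scraped cells a smaller share of 1 cell type and less RNA per cell cannot be told apart.

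No gene of the set passed an adjusted p of 0.05 in the linear model of limma, where adjusted p-values over all probes ran from 0.716 to 0.988 for the 31 genes, and none of 36295 probes did so, of which 6.39% had an unadjusted p under 0.05. At an unadjusted p under 0.05, 3 of the 31 genes passed, against 8.39% of named genes. All 3 also passed the threshold of the study, which is a fold of at least 1.5 with an unadjusted p under 0.05 and which controls no error rate over all probes. These were ACAT1 and SOAT1, higher in atretic follicles, and SCAP, lower in them. The background was 3.51% of all probes and 5.11% of named genes in either direction, with 2.66% of named genes higher and 2.44% lower in atretic follicles. None of the 17 enzymes from HMGCS1 to DHCR7 passed.

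By direction alone, 21 of the 31 genes and 14 of the 17 enzymes had a negative ratio, against 47.7% of all named genes. The median ratio was -0.17 for the 31 genes and -0.39 for the 17 enzymes, against 0.01 for all named genes. The pairs ran in opposite directions. The enzymes had a median ratio of 1.57 in pair 1, -1.85 in pair 2, -1.21 in pair 3 and -0.48 in pair 4, while the median over all named genes was between 0.01 and 0.02 in every pair. A negative ratio was found for 1 of 17 enzymes in pair 1, for 17 in pair 2, for 12 in pair 3 and for 15 in pair 4. A higher signal in the atretic follicle of pair 1 together with a lower one in the atretic follicles of the 3 other pairs was seen for 14 of the 31 genes (45.2%) and 11 of the 17 enzymes (64.7%), against 10.6% of named genes. Without pair 2 the median of the enzymes was 0.06 and that of all 31 genes 0.09, both of the opposite sign.

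**Figure D1:**
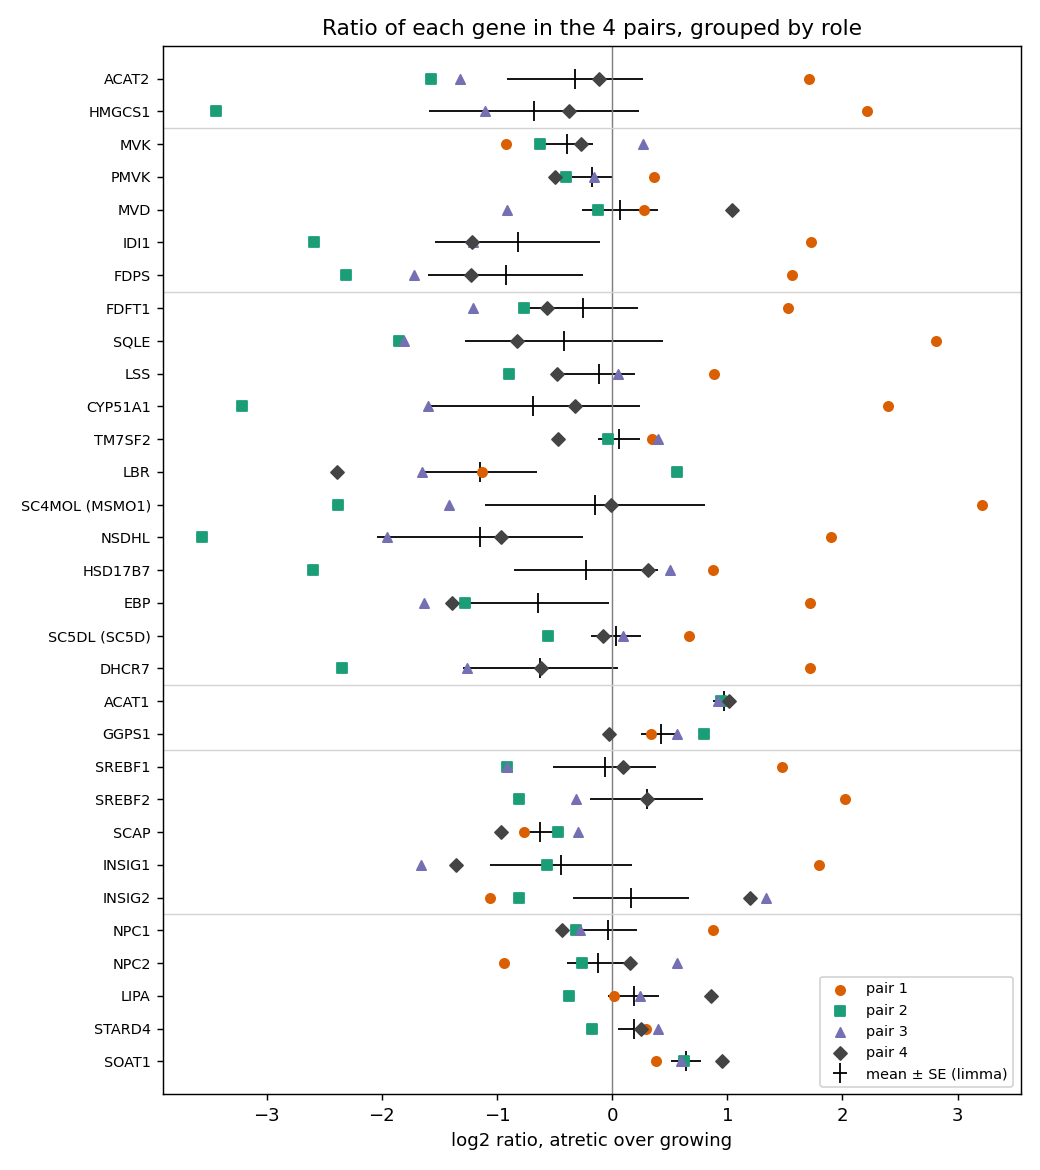
Log2 ratio of atretic over growing for each of the 31 genes (rows, grouped by role) in the 4 hybridised pairs (coloured symbols), with the mean and SE of the limma fit (vertical tick and bar, n = 4 pairs). Most enzymes lie right of 0 in pair 1 and left of 0 in pairs 2 to 4, while ACAT1 and SOAT1 lie right of 0 and SCAP left of 0 in all 4 pairs.

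The levels behind these ratios showed which follicles differed. Centred on the mean of each gene over the 8 follicles, the enzymes had a median of 0.48 in atretic 1, -1.18 in atretic 2, -0.33 in atretic 3 and 0.13 in atretic 4, against -0.92 in growing 1, 0.43 in growing 2, 0.79 in growing 3 and 0.57 in growing 4. Atretic 2 and growing 1 were thus the follicles of low enzyme signal, and the ranges of atretic and growing follicles overlapped. Atretic 2 had the lowest level of all 8 follicles for 10 of the 17 enzymes (58.8%, against 14.0% of named genes), and growing 1 had it for 4. The highest level was found in growing 2 for 6 enzymes, in atretic 1 for 5, in growing 3 for 4, and in atretic 3 and growing 4 for 1 each. Within its own phase, atretic 1 was the highest of the atretic follicles for 11 of 17 enzymes (26.9% of named genes), and growing 1 was the lowest of the growing follicles for 14 (28.3% of named genes). None of the 31 genes had atretic and growing levels that did not overlap, against 3.63% of named genes.

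**Figure D2:**
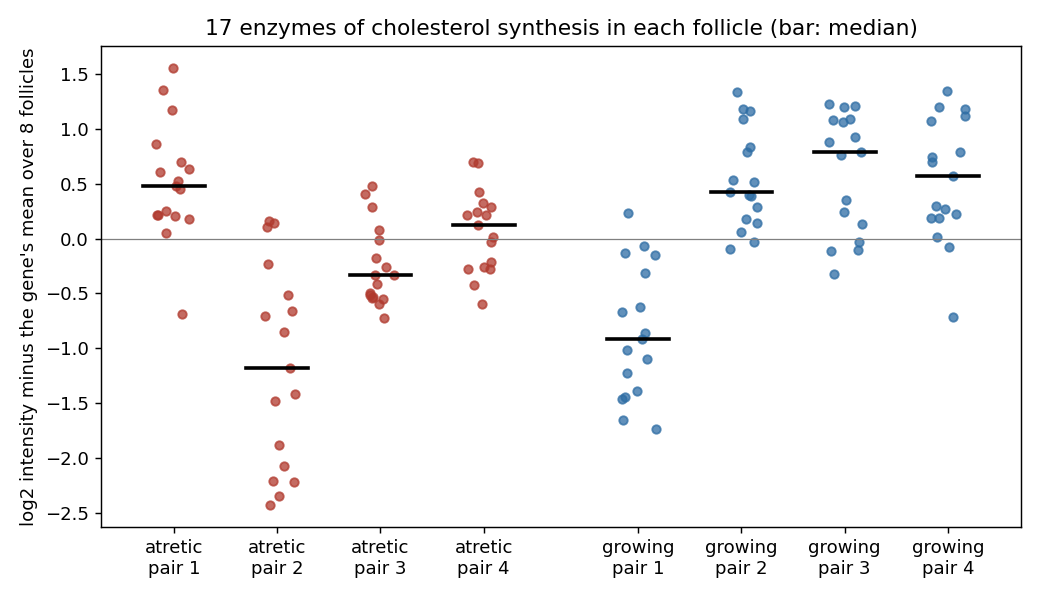
Level of each of the 17 enzymes from HMGCS1 to DHCR7 (points) in each follicle, as log2 intensity minus the mean of that gene over the 8 follicles, atretic in red and growing in blue, with the median over the enzymes as a bar. The medians of atretic 2 (-1.18) and growing 1 (-0.92) lie below those of the 6 other follicles.

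The enzymes varied more among follicles than most genes did. The range over the 8 follicles had a median of 2.35 for the 17 enzymes and 1.77 for the 31 genes, against 0.97 for all named genes. The widest ranges were 3.77 for SC4MOL, 3.60 for CYP51A1, 3.56 for NSDHL, 3.44 for HMGCS1, 3.42 for IDI1 and 3.23 for SQLE, each wider than the range of at least 96.3% of named genes. At the other end TM7SF2 (0.54) and STARD4 (0.67) had ranges below the median of all genes.

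At the start of the route, ACAT2 joins acetyl-CoA units in the cytosol and HMGCS1 makes HMG-CoA, the substrate from which mevalonate is formed. HMGCS1 had levels of 12.55, 9.73, 11.90 and 12.77 in atretic 1 to 4, against 10.34, 13.17, 13.00 and 13.14 in growing 1 to 4. Growing 2 to 4 lay close together, while growing 1 stood far below them and atretic 2 was the lowest of all. In pair 2 the signal of HMGCS1 was 10.9-fold lower in the atretic follicle, and in pair 1 it was 4.63-fold higher. The mean ratio was -0.68 ± 0.91 (SE, n = 4). Of the 3 other probes of HMGCS1, 1 had a mean of the opposite sign. ACAT2 had the same order of pairs, with ratios of 1.71, -1.58, -1.32 and -0.11.

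From mevalonate to farnesyl pyrophosphate, MVK and PMVK add phosphate, MVD removes carbon dioxide, IDI1 interconverts the isoprene units and FDPS joins them. Of these 5 enzymes, IDI1 and FDPS varied widely between follicles and the others less. IDI1 had levels of 10.45, 7.75, 9.49 and 9.95 in atretic follicles, against 8.73, 10.34, 10.70 and 11.16 in growing ones. All 4 atretic follicles lay below growing 3 and 4, and the lowest was again atretic 2. FDPS followed the same course with ratios of 1.57, -2.31, -1.72 and -1.23. The ratios of MVK, PMVK and MVD stayed between -0.92 and 1.04 in every pair. MVK differed from most of the route in having a lower signal in the atretic follicle of pair 1 (-0.92), with -0.63, 0.27 and -0.27 in pairs 2 to 4. This rests on its brightest probe, since its 2 other probes, near background at 7.26, had ratios of 0.10 and 0.23 in pair 1. MVD stood at 1.04 in pair 4 and -0.91 in pair 3.

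Squalene is made by FDFT1, epoxidised by SQLE and closed to lanosterol by LSS. SQLE had levels of 12.97, 9.74, 11.02 and 11.91 in atretic follicles, against 10.15, 11.58, 12.82 and 12.73 in growing ones. Atretic 1 was the highest of all 8 follicles for SQLE, and its ratio in pair 1 was a 7.04-fold higher signal in the atretic follicle, compared with a 3.60-fold lower one in pair 2. FDFT1 had ratios of 1.52, -0.77, -1.21 and -0.56. Its other probe, dimmer at a mean log2 intensity of 8.13, was above the negative controls on all arrays. That probe had ratios of -0.08, -0.22, -0.08 and -0.31, without the higher signal in pair 1. LSS was close to background and exceeded the negative controls on 6 of 8 arrays of each phase, so its ratio of -0.11 ± 0.31 is not exact.

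Lanosterol is then demethylated and reduced to cholesterol. CYP51A1, which removes the first methyl group, had levels of 14.63, 11.03, 12.92 and 13.88 in atretic follicles, against 12.23, 14.24, 14.52 and 14.20 in growing ones. Its growing follicles 2 to 4 lay close together and growing 1 apart, as for HMGCS1. SC4MOL, the oxidase of the next methyl groups, had 14.39, 10.63, 12.50 and 13.52 in atretic follicles, against 11.18, 13.01, 13.92 and 13.53 in growing ones. For this gene the ratio was 3.21 in pair 1 and -2.38 in pair 2, while pair 4 was level at -0.01. Of its other probes, 2 had the same signs in pairs 1 to 3, and 1, above the negative controls on all arrays, had ratios of -0.01, 0.20, -0.49 and 0.12, without the wide ratios of pairs 1 and 2. NSDHL, the dehydrogenase that works with SC4MOL, had 11.19, 8.52, 10.01 and 10.95 in atretic follicles, against 9.29, 12.08, 11.97 and 11.92 in growing ones. Here all 4 atretic follicles lay below growing 2, 3 and 4, and only growing 1 overlapped with them. The signal of NSDHL was 11.8-fold lower in atretic 2 than in growing 2, the widest ratio of any of the 31 genes in any pair. Its mean of -1.14 ± 0.90 (SE, n = 4) had an adjusted p of 0.873 in limma.

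The remaining steps were less uniform. HSD17B7, the reductase that completes the removal of methyl groups, stood apart in pair 2, with a ratio of -2.60 against ratios of 0.88, 0.50 and 0.31 in pairs 1, 3 and 4. EBP, the isomerase of the sterol double bond, had ratios of 1.72, -1.28, -1.64 and -1.39, and DHCR7, the last enzyme of the branch through 7-dehydrocholesterol, had 1.72, -2.35, -1.26 and -0.61. SC5DL, a desaturase, had a mean of 0.03 ± 0.22 and exceeded the negative controls on 6 of the 8 arrays for atretic and on 7 of the 8 for growing follicles. The sterol 14-reductase step can be carried out by TM7SF2 and by LBR, which is also a receptor of the nuclear lamina that binds chromatin. TM7SF2 had ratios between -0.47 and 0.40. LBR had levels of 11.63, 12.73, 11.46 and 10.69 in atretic follicles, against 12.76, 12.17, 13.11 and 13.08 in growing ones, so pair 2 was the exception for LBR and not pair 1. Its mean of -1.15 ± 0.50 was the lowest of the 31 genes, with an unadjusted p of 0.0684 in limma and an adjusted p of 0.801. It passed the threshold of the study in 7 of 19 alternative fits. Among them were those without pair 2 (-1.72), with loess alone (-1.24) and with array weights (-1.41). Adding quantiles of mean intensities only to loess repeated the loess values. The replicate block also passed (-1.15, unadjusted p of 0.00633 and adjusted p of 0.188 in limma). That block sets 1 within-pair correlation of 0.46 for all probes, so dye swaps count in part as extra replicates. For LBR the swaps were close, at -1.10 and -1.16, 0.49 and 0.64, -1.59 and -1.71, and -2.39 and -2.38 in pairs 1 to 4.

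Each pair was left out in turn, and leaving out pair 1 changed the counts most. Without pair 1 the threshold of the study was passed by 12 of the 31 genes, 10 of them lower in atretic follicles (5.85% of named genes were called lower in that fit) and 2 higher (7.32% of named genes). The genes lower without pair 1 were ACAT2 (-1.004), IDI1 (-1.67), FDPS (-1.75), FDFT1 (-0.85), SQLE (-1.49), CYP51A1 (-1.71), NSDHL (-2.16), EBP (-1.43), DHCR7 (-1.41) and INSIG1 (-1.19). HMGCS1 (-1.64) and SC4MOL (-1.27) had ratios of similar size and did not pass. The median of the 17 enzymes was then -1.27, and the lowest adjusted p of limma among the 31 genes was 0.154. The count was 4 without pair 2, 4 without pair 3 and 1 without pair 4. The share of named genes called was not counted for those fits. Over all 36295 probes, too, the fewest calls were made without pair 4 (782) and the most without pair 1 (3401). The counts of all probes without pair 2 or 3 lay between these.

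The 3 genes past the threshold of the study were each of the same sign in all 4 pairs, which held for no other of the 31 genes (9.68%, against 15.1% of named genes). ACAT1 is a mitochondrial thiolase of ketone body and isoleucine metabolism that makes or splits acetoacetyl-CoA. It had levels of 12.11, 10.93, 11.95 and 11.98 in atretic follicles, against 11.12, 9.98, 11.03 and 10.97 in growing ones. Both follicles of pair 2 lay below the rest of their phase, so that atretic 2 overlapped with growing 1, 3 and 4, although each pair differed by nearly the same amount. The ratios were 0.99, 0.95, 0.92 and 1.01, a mean of 0.97 ± 0.10 (SE, n = 4) or a 1.96-fold higher signal, with an adjusted p of 0.716 in limma. A different probe annotated to ACAT1 lay near the negative controls, exceeding them on 1 of the 8 arrays for atretic and on 3 of the 8 for growing follicles, and had a ratio of -0.18. With the mean over both probes the ratio was 0.39 and did not pass, whereas it passed without each of the 4 pairs.

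SOAT1 esterifies cholesterol for storage in lipid droplets. Its levels were 14.37, 13.29, 14.03 and 14.17 in atretic follicles, against 13.99, 12.66, 13.44 and 13.22 in growing ones. The follicles of pair 2 were again the lowest of their phase. The mean ratio was 0.64 ± 0.13 (SE, n = 4), with 0.39, 0.63, 0.60 and 0.96 in pairs 1 to 4, a 1.56-fold higher signal in atretic follicles and an adjusted p of 0.716 in limma. It was 0.54 without pair 4, 0.42 with loess alone, 0.57 on the arrays titled 203 and 0.56 on those titled 204, and did not pass in those fits. The arrays titled 204 hold pairs 1 to 3 only. In pair 4 the array of that dye orientation, titled 248, had a ratio of 1.16, so that orientation was not tested whole.

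SCAP, the escort of SREBP, had levels of 10.16, 11.46, 11.45 and 10.47 in atretic follicles, against 10.92, 11.93, 11.75 and 11.43 in growing ones. Atretic 1 and 4 were the lowest of the 8 follicles. The mean ratio was -0.62 ± 0.15 (SE, n = 4), with -0.76, -0.47, -0.30 and -0.96 in pairs 1 to 4, a 1.54-fold lower signal in atretic follicles and an adjusted p of 0.716 in limma. Without pair 1 it was -0.58 and without pair 4 -0.51, and neither passed the fold of 1.5. Nor did the ratios of -0.46 with median centring alone and -0.50 on the arrays titled 204, which hold pairs 1 to 3 only.

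**Figure D3:**
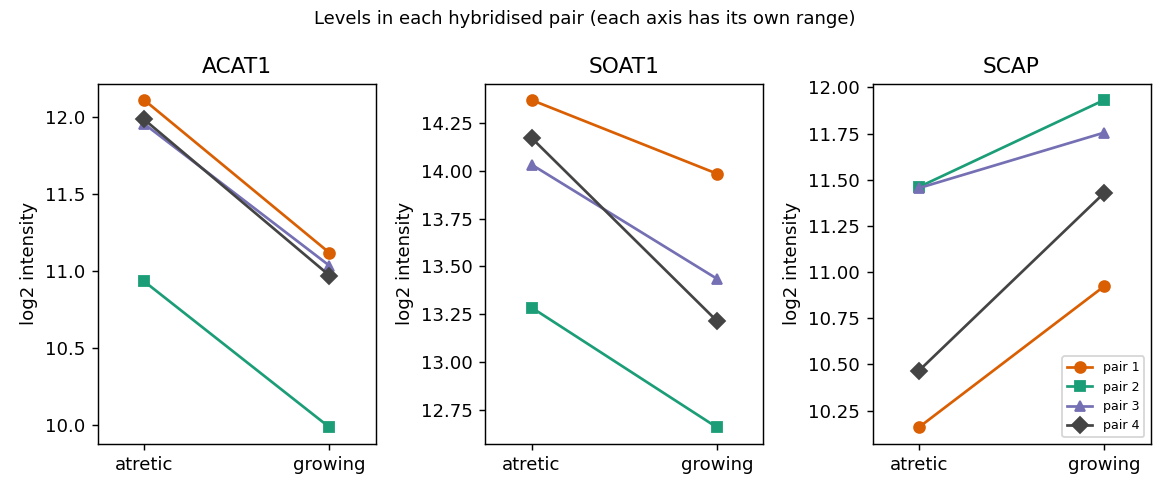
Levels (log2 intensity) of ACAT1, SOAT1 and SCAP in the atretic (left) and growing (right) follicle of each pair, joined by a line. The lines of ACAT1 run nearly parallel, with ratios of 0.92 to 1.01, and those of SCAP slope the opposite way in all 4 pairs.

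The ranges of both transcription factors over the 8 follicles, 1.47 for SREBF1 and 2.02 for SREBF2, were below the median of 2.35 for the enzymes. SREBF2 encodes SREBP-2, the main activator of the cholesterol enzymes. It had levels of 15.26, 13.57, 14.70 and 14.86 in atretic follicles, against 13.24, 14.37, 15.01 and 14.56 in growing ones. Atretic 2 and growing 1 were the lowest, as for the enzymes. The ratios of 2.02, -0.81, -0.31 and 0.30 gave a mean of 0.30 ± 0.49 (SE, n = 4). The probes of SREBF2 disagreed, however. A further bright probe, with a mean log2 intensity of 13.40, had ratios of -1.27, -1.72, -0.85 and -0.34 and a mean of -1.04, and the third, near background at 7.65, had a mean of 0.02. With the mean over all probes the ratio was -0.24, so no direction can be given for SREBF2.

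SREBF1 encodes SREBP-1, which acts mainly on fatty acid synthesis. Its levels were 12.45, 11.17, 11.26 and 11.92 in atretic follicles, against 10.98, 12.09, 12.18 and 11.83 in growing ones, with atretic 1 the highest and growing 1 the lowest. The mean ratio was -0.07 ± 0.45 (SE, n = 4), and 0.10 with median centring alone. INSIG1, itself a target of SREBP, had levels of 11.26, 9.21, 9.42 and 9.98 in atretic follicles, against 9.46, 9.77, 11.09 and 11.33 in growing ones. Its ratios of 1.79, -0.56, -1.66 and -1.35 had the signs seen for EBP and IDI1, and both other probes of INSIG1 had pair ratios of the same signs.

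INSIG2, the second retention protein, had a different pattern, with levels of 9.92, 10.29, 10.56 and 10.06 in atretic follicles, against 10.98, 11.10, 9.23 and 8.87 in growing ones. The atretic follicles lay close together between a high set (growing 1 and 2) and a low set (growing 3 and 4). The ratios were therefore negative in pairs 1 and 2 (-1.06 and -0.81) and positive in pairs 3 and 4 (1.33 and 1.19). The mean was 0.16 ± 0.50 (SE, n = 4). The other probe of INSIG2, which was dimmer, did not share this pattern, with ratios of 0.20, -0.30, 0.19 and -0.06.

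**Figure D4:**
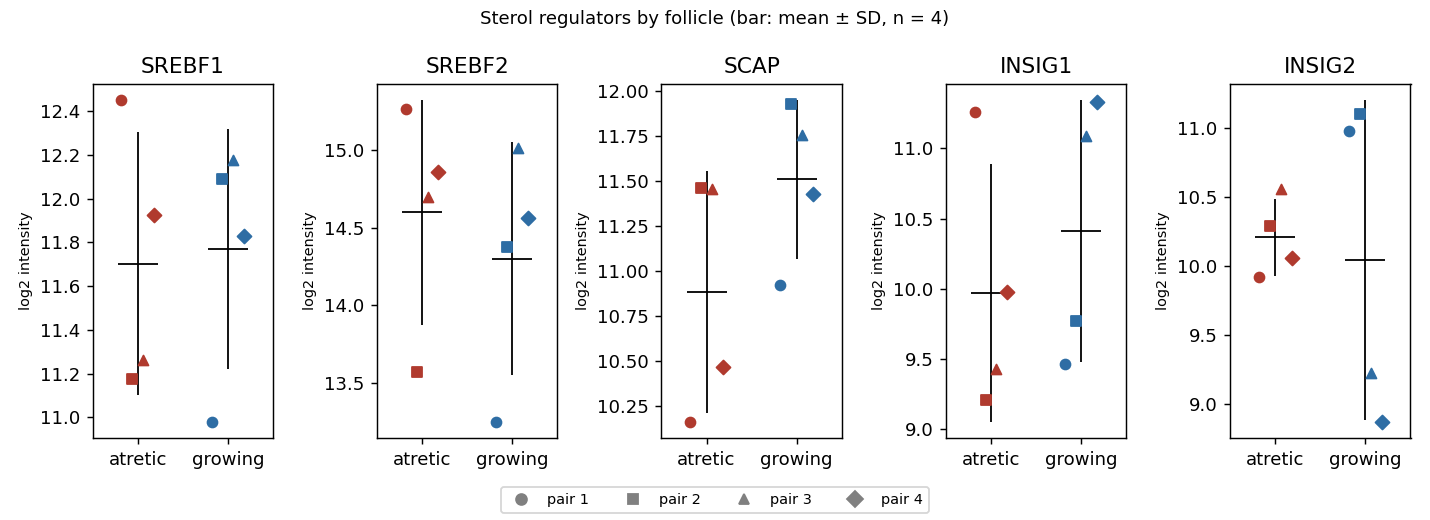
Levels (log2 intensity) of the 5 sterol regulators in atretic (red, left) and growing (blue, right) follicles, with the pair shown by the symbol and the mean ± SD of 4 follicles in black. Phases overlap for all 5 genes, and the growing follicles of INSIG2 fall at 8.87 to 9.23 and at 10.98 to 11.10.

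The genes that move or release cholesterol showed narrow ratios. NPC1 and NPC2 export cholesterol from lysosomes, where LIPA frees it from esters, and STARD4 carries sterol between membranes. NPC1 had ratios of 0.88, -0.32, -0.28 and -0.43 with a mean of -0.04 ± 0.26, and NPC2 had -0.94, -0.26, 0.56 and 0.15 with a mean of -0.12 ± 0.27. With median centring alone these means were 0.01 and 0.06. LIPA had a mean of 0.19 ± 0.22 with its highest ratio in pair 4 (0.85). STARD4 was near background, exceeding the negative controls on 2 of the 8 arrays for atretic and on 1 of the 8 for growing follicles. GGPS1, which draws farnesyl pyrophosphate into the synthesis of geranylgeranyl groups, had levels of 9.01, 9.09, 8.70 and 8.75 in atretic follicles, against 8.67, 8.29, 8.13 and 8.77 in growing ones. Its mean of 0.42 ± 0.17 (SE, n = 4) fell short of the threshold of the study, with an unadjusted p of 0.0521 in limma.

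Genes next to the pathway were counted in the same fit. Of the 2 proteases that release SREBP, MBTPS1 passed the threshold of the study, with levels of 11.59, 12.43, 12.52 and 12.53 in atretic follicles, against 11.93, 10.68, 11.23 and 10.80 in growing ones. Its signal was higher in the atretic follicle of pairs 2 to 4 (1.75, 1.30 and 1.73) and slightly lower in pair 1 (-0.34), with a mean of 1.11 ± 0.40 (SE, n = 4) and an adjusted p of 0.771 in limma. It passed without pair 1 (1.59) and fell short without pair 2 (0.896), 3 (1.05) or 4 (0.900). MBTPS2 stood at 0.35 ± 0.22. Of 8 genes of fatty acid synthesis, 2 passed, both lower in atretic follicles. These were FADS1, a fatty acid desaturase (-1.36 ± 0.32), and ELOVL6, an elongase (-0.69 ± 0.25). FASN and ACACA of the same list were near the negative controls, exceeding them on at most 5 of the 8 arrays of a phase. FADS1 was lower in the atretic follicle of all 4 pairs (-2.05, -1.87, -0.29 and -1.22) and passed without each pair in turn, at -1.72 to -1.13. ELOVL6 passed without pair 1 (-0.97) and fell short without pair 2 (-0.68), 3 (-0.57) or 4 (-0.52). SCD, the stearoyl-CoA desaturase, had ratios of 2.45, -2.79, -1.60 and -1.42. FADS2, a further desaturase, had 3.02, -4.86, -2.63 and -0.52, so both had the order of pairs seen for the sterol enzymes. ELOVL6 (0.17, -0.69, -1.02 and -1.20) and ACLY of the same list (0.62, -1.54, -0.84 and -0.02) shared their signs. A positive ratio in pair 1 with negative ones in pairs 2 to 4 thus held for 4 of the 8 genes (50%), against 10.6% of named genes.

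None of 5 genes of the LXR arm, which responds to surplus sterol, passed. Within it MYLIP, a ubiquitin ligase of lipoprotein receptors, had levels of 9.98, 12.01, 12.60 and 12.21 in atretic follicles, against 12.65, 9.75, 10.60 and 10.30 in growing ones. Its ratios of -2.67, 2.26, 2.00 and 1.91 had signs opposite to those of most enzymes. These signs were not seen for NR1H3, the receptor LXR alpha, with ratios of 0.68, -2.68, -0.88 and -0.03, nor in the median of the 5 genes (-0.18, 0.36, -0.09 and 0.01). ABCA1 exceeded the negative controls on only 3 of the 8 arrays for atretic and 4 of the 8 for growing follicles. ABCG1 was dim, with a mean log2 intensity of 7.64, so a shared pattern could be missed in both. None of 7 genes of the isoprenoid branch passed. None of 7 measured genes of steroid synthesis passed, and their median ratio was 3.47, -0.71, -1.87 and 0.49 in pairs 1 to 4. Of the 7, only CYP11A1 had the signs of most enzymes in all pairs (3.47, -0.71, -3.78 and -2.60), which is 14.3%, against 10.6% of named genes. STAR (4.28, -1.59, -1.87 and 0.86) and HSD3B1 (4.80, -3.01, -1.72 and 1.44) had them in pairs 1 to 3. So did SCARB1 (2.21, -4.81, -1.04 and 0.33) and FDX1 (1.04, -0.62, -0.03 and 0.49). HSD17B1 and CYP19A1 were instead higher in the atretic follicle of pair 2 (0.58 and 1.38). Steroid genes thus did not follow the enzymes in every follicle. CYP19A1, the aromatase that makes oestradiol, had 15.91, 8.80, 11.77 and 15.32 in atretic follicles, against 11.43, 7.42, 15.76 and 14.67 in growing ones. Growing 2, with the highest level of 6 of the 17 enzymes, thus had the lowest CYP19A1, while its SCARB1, the receptor that takes up cholesterol from lipoproteins, was the highest at 15.04 against 9.20 to 11.41 in the 7 other follicles.

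Some markers of cell types had the signs of most enzymes, with a higher signal in atretic follicles in pair 1 and a lower one in pairs 2 to 4. They were 2 of 11 for granulosa, 3 of 6 for theca, and 0 of 5 for smooth muscle, 0 of 6 for luteal and 0 of 4 for endothelial cells, against 10.6% of all named genes. The 2 granulosa markers were AMH, with ratios of 2.42, -2.02, -2.05 and -0.99, and INHA, whose ratios are not exact because of the scanner limit. GATM had the opposite signs (-3.71, 0.57, 2.37 and 1.43), and FSHR matched neither (-0.62, 1.80, -0.96 and 0.01). AMHR2, the receptor of AMH, was higher in atretic follicles in all 4 pairs (0.24, 3.30, 1.62 and 1.27) and passed the threshold of the study, with a mean of 1.61 ± 0.50 (SE, n = 4) and an adjusted p of 0.759 in limma. The 11 granulosa markers had a summed level of 16.51 to 17.92 in atretic and 15.75 to 17.81 in growing follicles, lowest in growing 1. CYP17A1 of theca cells had ratios of 1.78, -1.69, -1.75 and -0.41, which are not exact because its signal was near the negative controls in atretic 2 to 4. The 2 other theca markers with these signs were INSL3 (0.74, -0.27, -1.56 and -0.35) and NR2F2 (0.02, -0.08, -0.03 and -0.32). PDGFRA had the opposite signs (-1.07, 0.13, 2.15 and 1.73). TCF21 (1.14, 0.41, -1.86 and -0.19) and LHX9 (-0.03, -0.07, -0.13 and -0.26) matched neither. The median of the 6 theca markers was 0.38, -0.08, -0.84 and -0.29. MYH11, a smooth muscle myosin, ran the other way with ratios of -3.76, 4.68, 4.28 and 2.02, while the 4 other smooth muscle markers had ratios between -1.77 and 1.19 and the 5 together a summed level of 12.32 to 13.50 in atretic and 12.68 to 13.27 in growing follicles. The 6 luteal markers, 3 of which are also in the steroid list, had a summed level of 11.69 to 15.83 in atretic and 11.72 to 15.27 in growing follicles. The part of other cells in the ratios of the sterol enzymes was not tested.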

How the data were processed

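The authors deposited scanner intensity values, as medians of spot and local background in both channels without correction, and a processed table in log2, per array Cy5 over Cy3, made by subtracting background, then loess and quantile normalisation. That scale and direction were checked against the intensities (correlations of 0.9986 to 0.9999 across probes). Here intensities were corrected with normexp (offset 50), normalised by loess and quantiles, and turned to atretic over growing. The 1426 control spots and spots excluded in the image software (4 to 50 per array) were left out. The 2 arrays of a pair share their extracts and were averaged. Same-numbered arrays paired, since each of 8 arrays correlated best with its own dye swap (0.624 to 0.776). A minimum mean log2 intensity of 7 left 36295 of 43794 probes, whose ratios were tested two-sided against 0 by limma 3.58.1 (R 4.3.3) and adjusted by Benjamini-Hochberg over all of them. On data simulated with independent noise 200 of 200 changed probes had the right sign. The changes put in were larger than the mean ratios of ACAT1, SOAT1 and SCAP, and smaller ones were not simulated. Precision is limited by the 4 pairs.

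The platform annotation named 21790 probes by 1 symbol and left 22004 unnamed. Negative controls were 153 spots, with a limit at their 95th percentile. Members and lists were chosen with earlier results of these data known. Levels per follicle were given for HMGCS1, the SREBF and INSIG genes, members past the threshold of the study and the 6 members of the widest range. Other genes given in that way, LBR, GGPS1, MBTPS1, MYLIP and CYP19A1, were chosen after their values were seen. Alternatives varied background, normalisation, filter, probe choice, arrays, pairs and pairing. No coordinates or sequences are given.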

Additional observations from a re-analysis of the deposited data

Results flagged for a closer look

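Among 93 sets of 4 values (levels in atretic follicles, levels in growing follicles and pair ratios of each of the 31 genes), 12 held a value whose gap to the nearest other exceeded Dixon's 95% critical value as a share of the range. Chance flags about 1 set in 20, and genes of a route that vary together are not independent.

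Growing 1 stood below the other growing follicles for 5 enzymes. Its level was 10.34 for HMGCS1 (others 13.00 to 13.17), 11.87 for FDPS (14.09 to 14.46), 6.95 for LSS (7.87 to 8.01), 12.23 for CYP51A1 (14.20 to 14.52) and 9.29 for NSDHL (11.92 to 12.08). The ratio of pair 1, which holds this follicle, was apart from the others for EBP (1.72 against -1.64 to -1.28) and for NPC1 (0.88 against -0.43 to -0.28).

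Pair 2 was apart for HSD17B7, whose level was 9.15 in atretic 2 (others 10.81 to 11.05) and whose ratio was -2.60 (others 0.31 to 0.88). It was apart for ACAT1 in both phases, at 10.93 in atretic 2 (others 11.95 to 12.11) and 9.98 in growing 2 (others 10.97 to 11.12). SC5DL had its highest growing level in growing 4, at 7.95 (others 7.505 to 7.55).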

How the results depend on the processing

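The threshold of the study was passed by 1275 of all probes (51.5% of them higher in atretic follicles), by 2570 on the arrays titled 203 alone, by 2243 with the replicate block in place of averaged dye swaps (21 at an adjusted p under 0.05), by 2160 with the block and a dye term (17 adjusted), and by 782 (without pair 4) to 3401 (without pair 1) when a pair was left out. With median centring alone 72.7% of 1684 calls were higher. Of the 31 genes, 3 passed, 1 (without pair 4) to 12 (without pair 1) when a pair was left out, and 2 to 4 otherwise, with 4 under the replicate block. The block, in which dye swaps count in part as extra replicates, changed no call of the 31 genes other than that of LBR, which passed. The enzyme median ran from -1.27 without pair 1 to 0.06 without pair 2, and that of the 31 genes from -0.58 to 0.09.

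ACAT1 passed in 18 of 19 alternatives, SCAP in 14, SOAT1 in 13 and LBR in 7. Loess alone, and loess with quantiles of mean intensities only, gave the same ratios and p-values, so the 19 are not all distinct. Separate channels without pairing, chosen after seeing the data, left SCAP and SOAT1 short.

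Signs turned as follows, and the cause was not tested. Median centring gave SREBF1 0.10, NPC1 0.0077 and NPC2 0.057. Arrays titled 203 gave TM7SF2 -0.35 and NPC2 0.070. Arrays titled 204 gave PMVK 0.070, MVD -0.29, LSS 0.048, SC5DL -0.069, SREBF1 0.23, INSIG2 -0.14, NPC1 0.12 and LIPA -0.069. That fit held pairs 1 to 3 only, so dye orientation and the loss of pair 4 were not told apart in it. Array weights gave TM7SF2 -0.014, SC5DL -0.0034 and NPC2 0.011. The mean over probes gave TM7SF2 -0.082 and SREBF2 -0.24. With a pair left out, ranges crossed 0 for ACAT2 (-1.004 to 0.092), CYP51A1 (-1.71 to 0.16), FDFT1 (-0.85 to 0.064), HMGCS1 (-1.64 to 0.25), HSD17B7 (-0.59 to 0.56), INSIG2 (-0.23 to 0.57), LIPA (-0.037 to 0.37), LSS (-0.44 to 0.15), MVD (-0.25 to 0.40), NPC1 (-0.34 to 0.094), NPC2 (-0.35 to 0.15), SC4MOL (-1.27 to 0.60), SC5DL (-0.18 to 0.23), SQLE (-1.49 to 0.061), SREBF1 (-0.58 to 0.22), SREBF2 (-0.27 to 0.67) and TM7SF2 (-0.052 to 0.24).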
